A study of Mus musculus with 48 samples.

Results

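The metabotropic glutamate receptors examined here were the products of 6 mouse genes, Grm2, Grm3, Grm4, Grm5, Grm7 and Grm8. They were picked by symbol, through the Ensembl identifiers of the RNA count tables, from 47569 identifiers present in both kinds of RNA table. All 6 had reads in each of the 18 RNA libraries and passed the filter on low counts in every comparison. The study set Setd1b cKO (conditional knockout) mice against control mice, all C57BL/6J adults aged 4 to 6 months. Setd1b encodes a methyltransferase that acts on lysine 4 of histone H3 (H3K4). RNA was counted in hippocampal CA neurons (3 cKO and 3 Control libraries) and in the whole CA region (6 of each). Peaks of 4 histone modifications were called in sorted neuronal nuclei, with 4 libraries per genotype for H3K4me3 and H3K4me1, 4 cKO and 3 Control for H3K27ac, and 3 cKO and 4 Control for H3K9ac. The labels do not say by what method the neuron RNA was obtained. The labels name neither the Cre driver nor the cells in which the gene was deleted, and no allele or agent beyond the genotype is given for the controls.

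Metabotropic glutamate receptors are G-protein-coupled receptors that tune synapses on a slower time scale than the ion-channel glutamate receptors. Grm5 belongs to group I, which couples to Gq and phospholipase C and sits mainly beside the postsynaptic density, held there by Homer and Shank scaffolds. Grm2 and Grm3 form group II and Grm4, Grm7 and Grm8 group III, all coupled to Gi/o, which lowers adenylyl cyclase activity and curbs transmitter release. In the hippocampus Grm2 is known from the dentate gyrus and its mossy fibres, Grm3 from astrocytes as well as neurons, and Grm7 from the active zones of presynaptic terminals. H3K4me3 marks the starts of active genes, H3K4me1 their flanks and enhancers, and H3K27ac and H3K9ac accompany active promoters.

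Read depth was 55.7 to 69.1 M counted reads in neuron RNA and 14.9 to 20.1 M in whole CA RNA. Levels are given as counts per library scaled to a common total (CPM) with TMM factors over all 18 libraries. They are not divided by transcript length, so no order between genes is drawn from them. Setd1b reads were not lower in libraries labelled cKO, with 56.1 to 66.3 CPM against 44.0 to 60.9 CPM in neuron RNA and 56.3 to 70.8 CPM against 30.4 to 56.3 CPM in whole CA RNA. On the log2 scale cKO exceeded Control by 0.25 in neuron RNA (edgeR adjusted p 0.361) and by 0.59 in whole CA RNA (edgeR adjusted p 0.00415). Counts per gene do not show the loss of single exons, so cKO and Control stand below for libraries labelled cKO and labelled control. Whether libraries of a group came from separate animals is not stated, and the p-values measure the spread between these libraries. In neuron RNA the summed level of 7 astrocyte markers was 30.8 to 39.5 CPM, against 1554 to 1946 CPM in whole CA RNA. That of 5 pan-neuronal markers was also lower in neuron RNA, at 3008 to 3748 CPM against 6347 to 8185 CPM, and 4 of 5 were called lower between the Control libraries of the materials (median log2 difference −1.21).

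The bases just upstream of the Grm2 and Grm7 starts used here are shown because these genes had the largest H3K4me3 changes of the 6 and were the members called in RNA. Each run is the 250 bases before the start used here, from the RefSeq promoter table (GRCm38.p6), 5′ to 3′ on the strand of the gene, with GC boxes (GGGCGG, or CCGCCC on the other strand) in capitals.
Grm2, chr9:106656110-106656359, minus strand: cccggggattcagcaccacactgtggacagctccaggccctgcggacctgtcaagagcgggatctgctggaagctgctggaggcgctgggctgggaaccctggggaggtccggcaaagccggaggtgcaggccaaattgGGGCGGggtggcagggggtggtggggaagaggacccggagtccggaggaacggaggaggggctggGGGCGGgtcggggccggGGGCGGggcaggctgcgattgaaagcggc
Grm7, chr6:110645262-110645511, plus strand: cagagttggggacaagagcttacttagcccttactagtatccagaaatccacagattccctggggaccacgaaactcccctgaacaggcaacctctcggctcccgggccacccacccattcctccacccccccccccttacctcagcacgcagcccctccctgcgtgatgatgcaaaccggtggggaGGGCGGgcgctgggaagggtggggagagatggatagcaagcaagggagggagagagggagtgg
The Grm2 stretch held 3 GC boxes and 16 CpG dinucleotides, and the Grm7 stretch 1 GC box and 8 CpG. Grm3 and Grm8 each had 1 GC box in the same window, with 8 and 29 CpG. Of 27025 starts in the table, 8907 had at least 1 such box within 250 bases upstream, 16.8% had 2 or more, and the median CpG number was 6. The motif is a match of letters and says nothing of a bound factor. The RefSeq span of Grm7 begins at chr6:110645349, ahead of the start used here. Most of the Grm7 window, its GC box included, therefore lies inside the annotated gene. The Grm7 window also overlaps the long non-coding RNA gene Gm20387. The table also held entries for Grm3 and Grm8 but none for Grm4 and Grm5.

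In neuron RNA, Grm2 was the member whose level differed between the genotypes. Grm2 (ENSMUSG00000023192; chr9:106644534-106656109, minus strand), the presynaptic group II receptor, stood at 39.1, 41.4 and 48.8 CPM in cKO 1 to 3 and at 71.2, 63.8 and 54.8 CPM in Control 1 to 3. All cKO libraries lay below all Control libraries. Mean Grm2 was 43.1 ± 5.04 CPM in cKO and 63.3 ± 8.26 CPM in Control (SD, n = 3 each). This was a 1.48-fold lower level, −0.57 on the log2 scale with an SE of 0.12 (edgeR adjusted p 0.0375). Of the 19622 genes tested, 2.75% were called in either direction, 393 lower and 146 higher, and of the members 1 of 6 was called, lower. The call was lost when cKO 1, cKO 2, Control 1 or Control 2 was left out, with edgeR adjusted p of 0.183, 0.128, 0.0615 and 0.0991 and log2 fold changes of −0.50, −0.55, −0.48 and −0.56.

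Grm2 is a gene of dentate granule cells, and 2 of 6 markers of those cells were called lower in the same comparison. The summed level of 6 dentate granule markers was 168 to 212 CPM in neuron cKO libraries and 229 to 254 CPM in neuron Control libraries, without overlap. Of the 6 markers, Dsp and C1ql2 were lower, with log2 fold changes of −0.78 and −0.76 and edgeR adjusted p of 0.0352 and 0.0299. Pdzd2, Calb2, Stxbp6 and Prox1 were not called, with log2 fold changes of −0.52, −0.33, −0.17 and −0.02. Their edgeR adjusted p were 0.0579, 0.345, 0.497 and 0.93. None of the 6 markers was at 0 in any library. Summed CA1 pyramidal markers were 643 to 697 CPM in cKO and 735 to 783 CPM in Control (1 of 6 markers lower), and summed CA2 and CA3 markers 185 to 188 and 210 to 227 CPM (1 of 7 lower). Sums of microglial, oligodendrocyte precursor and choroid plexus markers also lay wholly lower in neuron cKO libraries. Those of pan-neuronal, interneuron, astrocyte, oligodendrocyte and endothelial and mural markers overlapped. A lower sum without overlap was thus not particular to granule cell markers. The part of these markers in the Grm2 result was not tested. In RNA from many cells, fewer cells of a type and less RNA per cell cannot be told apart.

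The other 5 members did not pass the test in neuron RNA. Grm3 (ENSMUSG00000003974; chr5:9485236-9725352, minus strand), the group II receptor shared with glia, stood at 4.95, 6.66 and 6.38 CPM in cKO 1 to 3 and at 6.81, 6.94 and 6.35 CPM in Control 1 to 3. The groups overlapped, and the log2 fold change was −0.17 (95% interval −0.46 to 0.12, edgeR adjusted p 0.532). Grm5 (ENSMUSG00000049583; chr7:87583981-88135063, plus strand), the group I receptor, stood at 597, 587 and 504 CPM in cKO and 453, 655 and 596 CPM in Control. Control 1 was the lowest and Control 2 the highest of these libraries. The Grm5 log2 fold change was −0.03 (95% interval −0.35 to 0.30, edgeR adjusted p 0.937).

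Among the group III receptors, Grm7 separated the genotypes by a small margin. Grm7 (ENSMUSG00000056755; chr6:110645349-111567230, plus strand) stood at 107.6, 107.6 and 106.5 CPM in cKO and at 116.7, 123.0 and 114.5 CPM in Control, with every cKO library below every Control library. Its log2 fold change of −0.15 (95% interval −0.33 to 0.02) did not pass the test (edgeR adjusted p 0.356). Grm4 (ENSMUSG00000063239; chr17:27422387-27513826, minus strand) stood at 11.1, 13.1 and 14.7 CPM in cKO and 16.77, 16.57 and 12.99 CPM in Control, with overlap. The Grm4 log2 fold change was −0.27 (95% interval −0.57 to 0.04, edgeR adjusted p 0.352). Grm8 (ENSMUSG00000024211; chr6:27275121-28135146, minus strand) stood at 7.11, 10.4 and 8.84 CPM in cKO and 10.9, 11.6 and 9.80 CPM in Control. The library cKO 2 overlapped the Control range, and the log2 fold change was −0.31 (95% interval −0.63 to 0.01, edgeR adjusted p 0.313). All 6 fitted differences were below 0, with a median log2 fold change of −0.22, while over all genes tested the median was 0.02 and 46.5% were below 0.

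**Figure D1:**
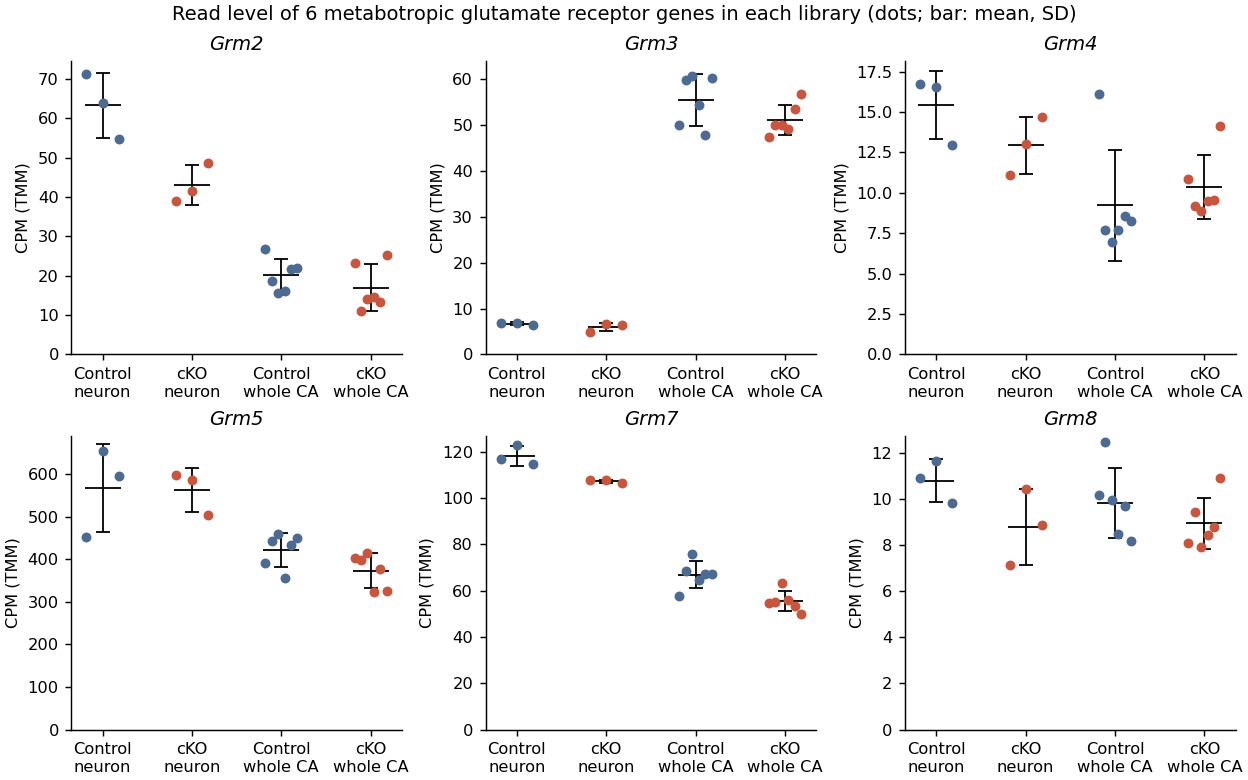
CPM of each member (y axis, from 0) in Control (blue) and cKO (red) libraries of neuron RNA and whole CA RNA (x axis). Dots are libraries and bars the mean with SD; Grm2 is lower in all 3 neuron cKO libraries, and Grm3 is at 4.95 to 6.94 CPM in neuron RNA against 47.4 to 60.8 CPM in whole CA RNA.

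In whole CA RNA, Grm7 was the member called between the genotypes. In the 6 cKO libraries Grm7 ranged from 49.9 to 63.2 CPM with a median of 54.9 CPM, and in the 6 Control libraries from 57.7 to 75.7 CPM with a median of 67.2 CPM. Of the cKO libraries, 5 lay below every Control library, and cKO 3 lay within the Control range. Mean Grm7 was 55.4 ± 4.38 CPM in cKO and 66.8 ± 5.87 CPM in Control (SD, n = 6 each), a difference of −0.28 on the log2 scale with an SE of 0.07 (edgeR adjusted p 0.023). Lower calls made up 2.79% of the 15362 genes tested and higher calls 1.38%, and 1 of 6 members was called, lower. Libraries 1 to 3 and 4 to 6 of each genotype carried different sequencing lane numbers. On the log2 scale, Grm7 in cKO differed from Control by −0.23 within the first of these lanes (edgeR adjusted p 0.392) and by −0.33 within the other (edgeR adjusted p 0.0986), and with lane as a term the call stood. Leaving out cKO 1, 5 or 6 or Control 2, 3 or 5 raised the adjusted p to between 0.0577 and 0.0803, with log2 fold changes of −0.27 to −0.24. Summed CA2 and CA3 pyramidal markers were 314 to 372 CPM in whole CA cKO libraries and 398 to 470 CPM in Control libraries, and 4 of 7 were lower. The part of these markers in the Grm7 result was not tested.

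Neither group II receptor passed the test in whole CA RNA. Grm2 ranged from 11.1 to 25.4 CPM (median 14.4) in cKO and from 15.7 to 26.8 CPM (median 20.2) in Control. The highest levels were those of Control 1, cKO 6 and cKO 1, and 4 of 6 cKO libraries lay below all Control libraries. The Grm2 log2 fold change was −0.25 (95% interval −0.64 to 0.13, edgeR adjusted p 0.58). Summed dentate granule markers spanned 105 to 170 CPM in cKO and 154 to 194 CPM in Control libraries, and 2 of 6, Dsp and Stxbp6, were lower. Over the 12 whole CA libraries, Grm2 and this sum had a Pearson r of 0.77 on log2 values, libraries of both genotypes and lanes included. For the other members r with the sum was 0.55 (Grm7), 0.47 (Grm5), 0.30 (Grm8), 0.16 (Grm3) and 0.08 (Grm4). Grm3 ranged from 47.4 to 56.7 CPM (median 50.1) in cKO and 48.0 to 60.8 CPM (median 57.2) in Control, a log2 fold change of −0.12 (95% interval −0.27 to 0.02, edgeR adjusted p 0.435).

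Grm5, Grm4 and Grm8 did not pass the test in whole CA RNA either. Grm5 ranged from 322 to 415 CPM (median 387) in cKO and 356 to 459 CPM (median 438) in Control, with 2 of 6 cKO libraries below the Control range. The log2 fold change was −0.18 (95% interval −0.34 to −0.02, edgeR adjusted p 0.24). Grm4 ranged from 8.85 to 14.2 CPM (median 9.50) in cKO and 6.95 to 16.1 CPM (median 7.99) in Control. Control 1 and cKO 6 stood above the rest of their groups, and the log2 fold change was 0.17 (95% interval −0.21 to 0.55, edgeR adjusted p 0.74). Grm8 ranged from 7.91 to 10.9 CPM (median 8.62) in cKO and 8.15 to 12.4 CPM (median 9.83) in Control, a log2 fold change of −0.14 (95% interval −0.38 to 0.10, edgeR adjusted p 0.62). Of the 6 members, 5 were below 0 in whole CA RNA, with a median log2 fold change of −0.16, while 50.8% of all genes tested were below 0.

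Grm2 was called in one material and Grm7 in the other, and neither effect was shown to differ between them. The interaction test over all 18 libraries called no member, against 0.160% of 17523 genes in either direction. No member had an unadjusted p under 0.05 in edgeR (0 of 6), and DESeq2 also called 0. For Grm2 the effect in neuron RNA less that in whole CA RNA was −0.31 on the log2 scale (95% interval −0.87 to 0.25, edgeR adjusted p 0.74). For Grm7 it was 0.13 (95% interval −0.09 to 0.36, edgeR adjusted p 0.723), and for Grm4 −0.43 (95% interval −0.99 to 0.12, edgeR adjusted p 0.665).

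Most members differed between the materials, and by more than between the genotypes. In Control libraries Grm3 was 8.21-fold lower in neuron RNA, at 6.70 ± 0.311 CPM (SD, n = 3), than in whole CA RNA, at 55.6 ± 5.63 CPM (SD, n = 6), a log2 difference of −3.04 (SE 0.11, edgeR adjusted p 1.83e-13). The neuron libraries of both genotypes, at 4.95 to 6.94 CPM, lay below all 12 whole CA libraries, at 47.4 to 60.8 CPM. Astrocyte markers, 7 of 7 of them, were also lower in neuron RNA. Grm2 was 3.17-fold higher in Control neuron RNA (log2 difference 1.67, SE 0.13, edgeR adjusted p 4.68e-09), and 4 of 6 dentate granule markers, C1ql2 among them, were higher as well while 1, Stxbp6, was lower. Grm7 was 1.79-fold higher (edgeR adjusted p 2.66e-08), Grm4 1.70-fold higher (edgeR adjusted p 0.00156) and Grm5 1.36-fold higher (edgeR adjusted p 0.000886). Grm8 did not pass the test, with a log2 difference of 0.15 (95% interval −0.11 to 0.41, edgeR adjusted p 0.266). The shares called over all genes were 40.1% lower and 43.6% higher, so 1 lower and 4 higher members are read against a background in which most genes were called.

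The cKO libraries gave the material difference from samples that the Control comparison did not use. In them Grm3 was 8.53-fold lower in neuron RNA, Grm2 was 2.54-fold higher, Grm7 1.94-fold and Grm5 1.51-fold higher, with edgeR adjusted p of 7.22e-13, 7.63e-06, 6.17e-09 and 2.19e-05. Grm4 was 1.25-fold higher with an edgeR adjusted p of 0.0471, a call lost when neuron cKO 2 or 3 or any of whole CA cKO 1 to 5 was left out (log2 differences of 0.23 to 0.33, edgeR adjusted p 0.0572 to 0.2) or a mean count of at least 10 was asked for (0.28, edgeR adjusted p 0.0804). Grm8 again did not pass the test (log2 difference −0.02, 95% interval −0.32 to 0.27, edgeR adjusted p 0.879). Here 39.9% of genes were called lower and 43.2% higher. Material, RNA preparation and sequencing run cannot be told apart in these comparisons. Scaling by library size alone moved the median log2 difference of all genes from 0.07 to 0.23 in Control and from 0.06 to 0.23 in cKO libraries. Under that scaling Grm8 was called higher in Control neuron RNA (log2 difference 0.31, edgeR adjusted p 0.0272), and no other member's call or direction changed in that comparison.

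**Figure D2:**
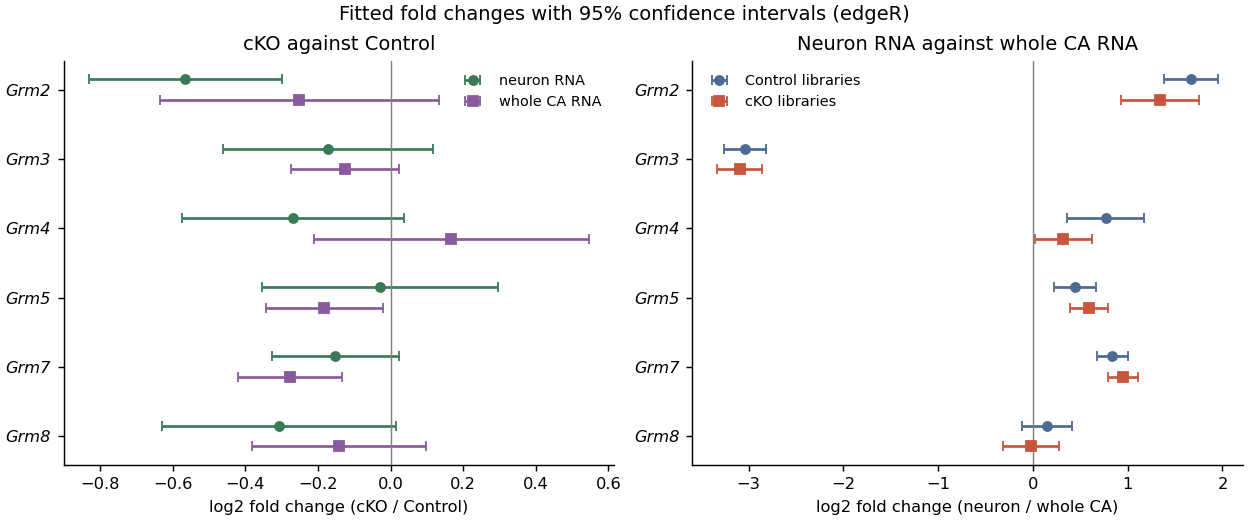
Log2 fold changes (x axis) of each member (y axis) with 95% confidence intervals, for cKO over Control in neuron RNA and whole CA RNA (left) and for neuron over whole CA RNA in Control and cKO libraries (right). The intervals of Grm2 in neuron RNA and of Grm7 and Grm5 in whole CA RNA lie below 0, and on the right Grm3 alone lies on the side of whole CA RNA with both intervals.

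H3K4me3 at the gene starts differed between the genotypes for 5 of the 6 receptor genes. For each library the lengths of the deposited peaks within 2 kb of the start were summed. In Control neurons these were wide domains: the widest H3K4me3 peak at Grm2, Grm5 and Grm7 lay between the 98.7th and the 99.5th percentile of all H3K4me3 peak lengths of its library. In cKO libraries the widest peak still ranked high, at percentiles 97.0 to 97.7 for Grm2, 98.6 to 99.3 for Grm5 and 98.1 to 99.2 for Grm7. The cKO libraries had shorter H3K4me3 peaks at Grm2, Grm7, Grm5, Grm3 and Grm8, and for these 5 genes no cKO library overlapped the Control range. The share of all starts without such overlap was not computed, so this count does not set the members apart. Of the 14552 starts tested, 27.1% were called in either direction, 3785 shorter and 153 longer, so shortening was common. The members' median log2 difference was −0.40, and over all starts it was −0.10, with 75.2% below 0. The members were not compared with starts of like peak width, so the larger median does not set the receptor genes apart.

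At Grm2 the summed H3K4me3 peak length was 5.77, 5.72, 5.61 and 5.65 kb in Control 1 to 4 and 3.07, 3.42, 3.10 and 3.42 kb in cKO 1 to 4. The means were 5.69 ± 0.0751 kb (SD, n = 4) and 3.25 ± 0.195 kb (SD, n = 4), a log2 difference of −0.79 (SE 0.05, limma adjusted p 3.41e-05). The difference was on the side of the gene body. The far edge lay 4.34 to 4.41 kb into the gene in Control and 2.13 to 2.21 kb in cKO. The upstream edge lay 1.19 to 1.60 kb and 0.90 to 1.40 kb before the start, with overlap. The stretch of 3 GC boxes printed above lay within the marked region in both genotypes.

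Grm7 had a change of similar size. Its summed H3K4me3 length was 6.30, 6.04, 6.01 and 6.21 kb in Control 1 to 4 and 3.55, 3.68, 3.44 and 4.05 kb in cKO 1 to 4, a log2 difference of −0.73 (SE 0.05, limma adjusted p 9.16e-05). The edge in the gene drew back from 5.09 to 5.50 kb in Control to 2.68 to 3.27 kb in cKO, while the upstream edge lay 0.78 to 0.92 kb and 0.73 to 0.85 kb before the start. Grm5 lost H3K4me3 in the same place. Its summed length was 5.61, 5.13, 5.41 and 5.90 kb in Control and 3.78, 4.15, 3.69 and 4.13 kb in cKO, a log2 difference of −0.48 (SE 0.06, limma adjusted p 0.00105). The edge in the gene lay at 5.05 to 5.87 kb in Control and 3.65 to 3.99 kb in cKO.

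The remaining members had narrower H3K4me3 domains and smaller differences. Grm3 averaged 3.53 ± 0.189 kb (SD, n = 4) in Control and 2.78 ± 0.112 kb (SD, n = 4) in cKO, a log2 difference of −0.33 (limma adjusted p 0.00229), with the far edge at 1.80 to 2.14 kb and 0.95 to 1.14 kb into the gene. Grm8 averaged 3.88 ± 0.255 kb and 3.28 ± 0.0721 kb (SD, n = 4 each), a log2 difference of −0.24 (limma adjusted p 0.0136), with the far edge at 2.51 to 3.09 kb and 2.17 to 2.38 kb. Grm4 averaged 2.72 ± 0.255 kb and 2.57 ± 0.0846 kb (SD, n = 4 each) with overlap, and did not pass the test (log2 difference −0.08, 95% interval −0.23 to 0.08, limma adjusted p 0.462). The lane numbers split H3K4me3 into libraries 1 to 3 and library 4 of each genotype. The log2 differences of the 5 called genes were −0.82 to −0.20 within the first lane and −0.71 to −0.32 between the libraries 4. The file headers name 1 input per genotype as the background for peak calling, so input and genotype cannot be told apart.

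Centring each library on its median peak length, an alternative chosen after seeing the data, moved the median over all starts from −0.10 to 0.04 and left 3 members called. Starts called shorter and longer then numbered 1964 and 1621, in place of 3785 and 153. The calls that remained were Grm2 (log2 difference −0.65), Grm7 (−0.59) and Grm5 (−0.34), with limma adjusted p of 6.39e-05, 0.000492 and 0.00642. Grm3 and Grm8 stood at −0.20 and −0.10 (limma adjusted p 0.0545 and 0.222), and Grm4 at 0.06.

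**Figure D3:**
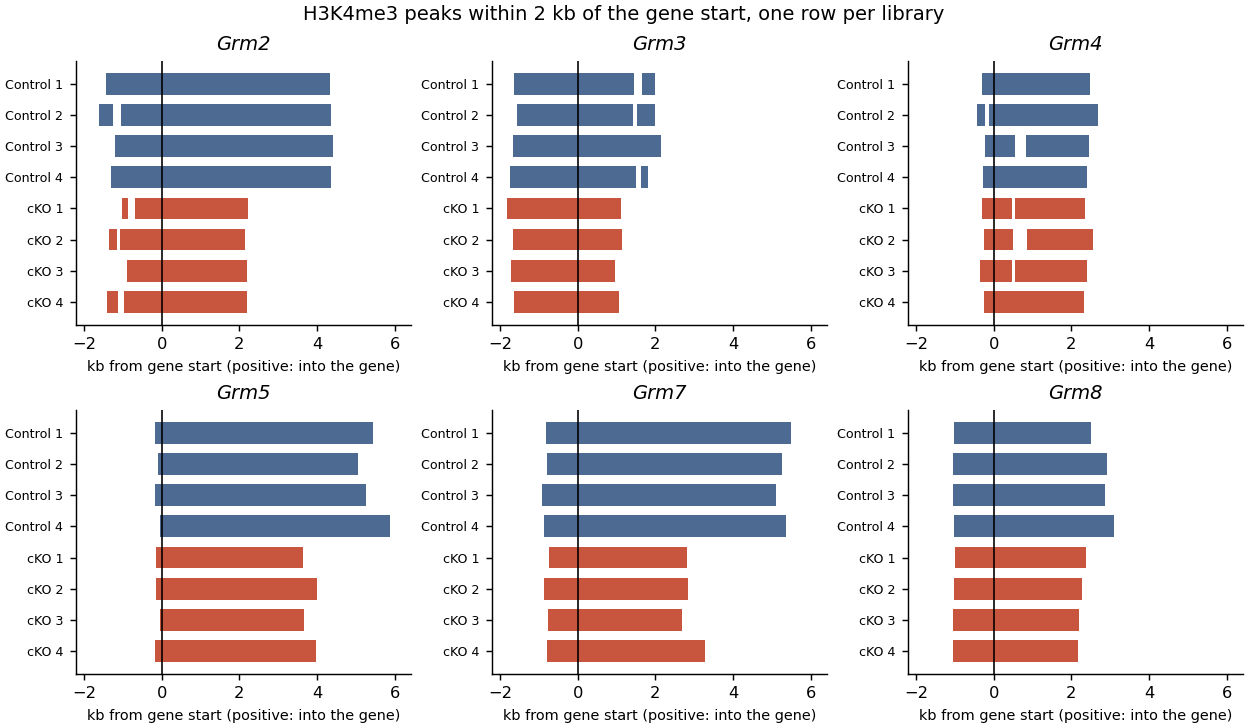
H3K4me3 peaks within 2 kb of each member's start, as bars, with the distance from the start in kb on the x axis (positive into the gene) and 1 row per library, Control in blue and cKO in red. At Grm2, Grm5 and Grm7 the right-hand edge is nearer to the start in all 4 cKO libraries, while the left-hand edge is about level.

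H3K4me1 near the start differed between the genotypes at Grm5 by summed length, and at Grm7 by position. The summed length of H3K4me1 peaks within 2 kb of the Grm5 start was 0.51, 0.29, 0.32 and 1.66 kb in Control 1 to 4 and 4.35, 4.57, 3.26 and 4.36 kb in cKO 1 to 4. The groups did not overlap, and the log2 difference was 2.70 (SE 0.46, limma adjusted p 0.0134). In this comparison 5.89% of 17900 starts were called shorter and 1.34% longer, and 1 of 6 members was called, longer. Within the lane that held library 1 of each genotype the log2 difference was 2.87, and within the lane that held libraries 2 to 4 it was 2.64. With each library centred, starts called shorter and longer numbered 652 and 479 in place of 1055 and 239, and Grm5 remained called. The call depended on the window: with peaks within 5 kb of the start the log2 difference was 0.42 (limma adjusted p 0.601), and with peaks within 1 kb it was 1.99 (limma adjusted p 0.279). Among peaks with a −log10 q of at least 5, Grm5 had a peak in too few libraries to be tested. Over the first 10 kb of Grm5 the H3K4me1 peaks covered 5.42 ± 1.05 kb in Control and 5.51 ± 0.434 kb in cKO (SD, n = 4 each), with overlap. Beyond 0.5 kb into Grm5, the first base covered by an H3K4me1 peak lay at 3.78, 3.46, 4.11 and 0.5 kb in Control 1 to 4 and at 0.5, 0.5, 1.06 and 0.5 kb in cKO 1 to 4. Control 4 lay within the cKO range, and the other Control libraries lay further into the gene.

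At Grm7 the position of H3K4me1 separated the genotypes in every library. Beyond 0.5 kb into Grm7, the first base covered by an H3K4me1 peak lay at 1.96, 2.90, 2.36 and 2.98 kb in Control 1 to 4 and at 0.81, 1.23, 1.23 and 0.99 kb in cKO 1 to 4, without overlap. The far edge of that peak lay 8734 to 8818 bp into the gene in Control and 5294 to 6287 bp in cKO. Shorter peaks lay beyond it in cKO. Over the first 10 kb of Grm7, H3K4me1 peaks covered 6.23 ± 0.47 kb in Control and 5.3 ± 0.9 kb in cKO (SD, n = 4 each), with overlap. These distances were chosen after seeing the peaks and have no test. The summed length within 2 kb of the Grm7 start had a log2 difference of 1.70 (95% interval 0.07 to 3.33, limma adjusted p 0.204). In Control 1 the peak inside the gene began within the 2 kb window and in the other Control libraries outside it, and without Control 1 the log2 difference was 2.45 (limma adjusted p 0.00329). The direction turned with the lane and the window. Between the libraries 1 it was −0.48, between libraries 2 to 4 it was 2.42, and with peaks within 5 kb it was −0.46 (limma adjusted p 0.0613). Grm2 had an H3K4me1 gap downstream of its start in all 4 Control libraries and 1 unbroken peak across the start in all 4 cKO libraries. Its summed length was 6.52 to 10.1 kb in Control and 9.31 to 9.90 kb in cKO, a log2 difference of 0.27 (limma adjusted p 0.336). With peaks within 1 kb it was 0.71 and passed the test (limma adjusted p 0.0046), and among peaks with a −log10 q of at least 5 it was 2.18 without passing. Grm3, Grm4 and Grm8 had log2 differences of 0.09, 0.02 and 0.12, with limma adjusted p of 0.768, 0.957 and 0.675.

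**Figure D4:**
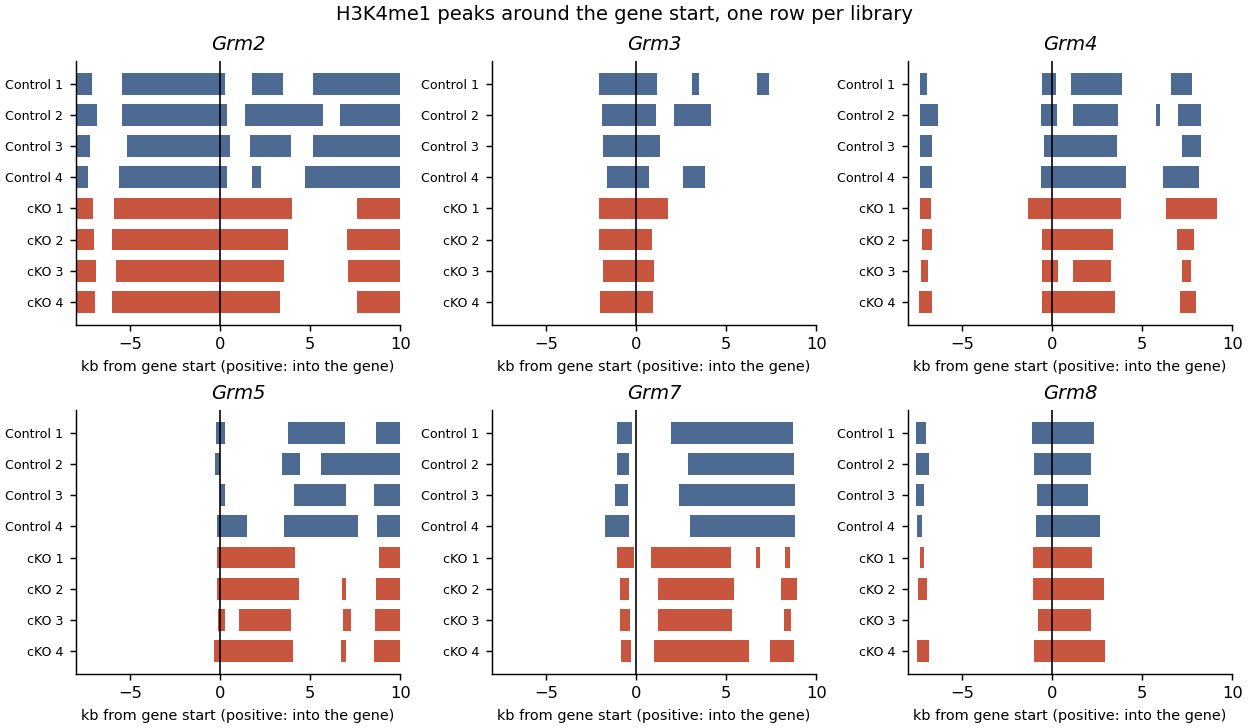
H3K4me1 peaks around each member's start, drawn to 8 kb upstream and 10 kb downstream (x axis, kb, positive into the gene), 1 row per library, Control in blue and cKO in red. At Grm7 the peak inside the gene begins nearer to the start in all 4 cKO libraries, at Grm5 Control 4 resembles the cKO libraries just after the start, and at Grm2 the gap after the start in Control rows is filled in cKO rows.

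For the acetylation marks no member passed the test. None was called for H3K9ac, where 1.26% of 14867 starts were called in either direction with limma, or for H3K27ac, where 0.542% of 14395 were. At an unadjusted p under 0.05, 2 members were shorter in H3K9ac and 1 in H3K27ac. The shares of all starts at that cut were not computed, so these counts are not read as a result about the members. Over all starts, 64.3% in H3K9ac and 65.7% in H3K27ac had a log2 difference below 0. H3K9ac at Grm7 was 4.34, 5.29, 4.27 and 5.46 kb in Control 1 to 4 and 2.91, 4.09 and 2.81 kb in cKO 1, 2 and 4, without overlap. The log2 difference was −0.56 (95% interval −0.95 to −0.17, limma adjusted p 0.171). H3K9ac at Grm2 was 4.38, 5.86, 5.77 and 5.83 kb in Control and 3.87, 4.43 and 4.11 kb in cKO, where cKO 2 overlapped Control 1, and the log2 difference was −0.38 (95% interval −0.68 to −0.09, limma adjusted p 0.197). H3K27ac at Grm7 averaged 4.49 ± 0.440 kb (SD, n = 3) in Control and 3.67 ± 0.313 kb (SD, n = 4) in cKO, a log2 difference of −0.28 (95% interval −0.53 to −0.04, limma adjusted p 0.347). H3K27ac at Grm2 overlapped between the genotypes, with a log2 difference of 0.28 (95% interval −0.18 to 0.74, limma adjusted p 0.576).

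**Figure D5:**
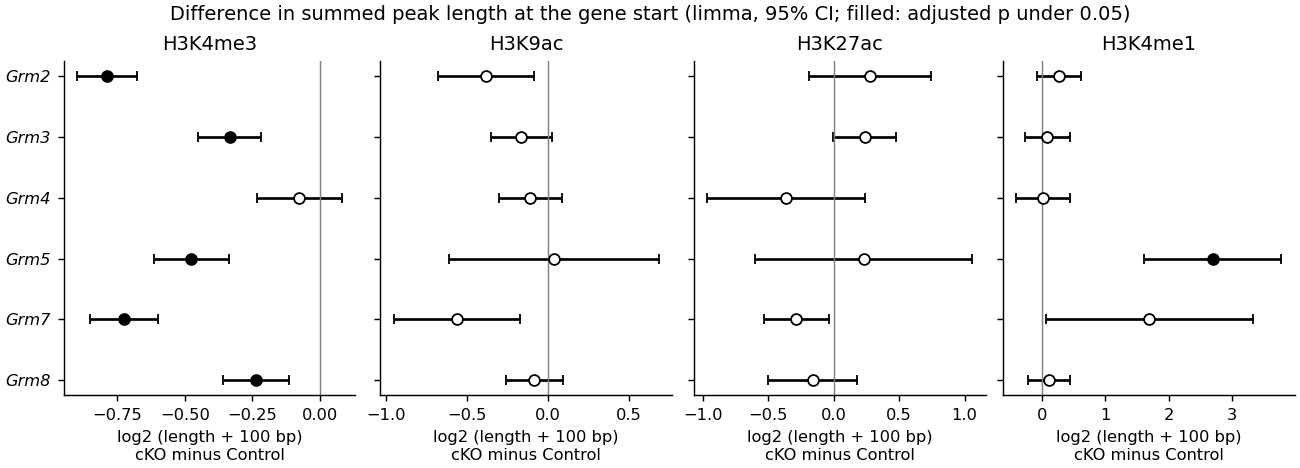
Difference in log2 of summed peak length plus 100 bp, cKO minus Control (x axis, a separate scale per mark), for each member (y axis), with 95% confidence intervals; filled points have a limma adjusted p under 0.05. The 5 filled points of H3K4me3 lie below 0 and the filled point of H3K4me1, Grm5, lies above it.

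The H3K4me3 and neuron RNA differences of the members, both on the log2 scale, were as follows. Grm2 had −0.79 in H3K4me3 and −0.57 in RNA, and Grm7 had −0.73 and −0.15. Grm5 had −0.48 and −0.03, and Grm3 −0.33 and −0.17. Grm8 had −0.24 and −0.31, and Grm4, which did not pass the H3K4me3 test, −0.08 and −0.27. Of these RNA differences Grm2 alone passed the test, and the Grm7 call came from whole CA RNA, while the peaks came from neuronal nuclei. With 6 genes no relation between the measures was computed.

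The other genes of the receptors' pathways were drawn from 4 lists with 63 genes tested. In neuron RNA edgeR called 0 of 63, beside 2.75% of all genes. DESeq2 called 2 of 63, and over all genes 574 lower and 266 higher. In edgeR 15 of 63 had an unadjusted p under 0.05 (11 lower, 4 higher). The share of all genes at that cut was not computed, so the 15 are not read as a result about the lists. The median log2 fold change of the 63 was −0.02. In whole CA RNA 3 of 63 were lower and 5 higher, beside 2.79% and 1.38% of all genes, and the median log2 fold change was −0.01. These 8 calls became 2 to 11 under the alternatives, and 6 to 9 with 1 library left out. For neuron RNA the calls numbered 0 to 2 and 0 to 1. Single genes of the lists were not followed through the alternatives, so the stability of each call named below is not known.

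Along the group I pathway, called genes lay in both directions in whole CA cKO libraries. Prkca, a protein kinase C isoform, was lower by a log2 fold change of −0.28, at 491 ± 37.1 CPM against 593 ± 38.4 CPM (SD, n = 6 each, edgeR adjusted p 0.00775). Itpr1, the IP3 receptor that releases calcium from stores, was higher by 0.19 (edgeR adjusted p 0.042). Of 14 scaffold genes tested, Homer3 and Frmpd4 were lower and Grasp was higher. Homer3, of the family that ties Grm5 to the postsynaptic density, averaged 31.8 ± 3.28 CPM in cKO and 44.7 ± 3.95 CPM in Control (SD, n = 6 each), a log2 fold change of −0.49 (edgeR adjusted p 0.000668). In neuron RNA Homer3 had a log2 fold change of −0.46 with an edgeR adjusted p of 0.07. Frmpd4, a scaffold of dendritic spines that binds Homer, was lower by −0.23 on the log2 scale (edgeR adjusted p 0.00611), and Grasp, the scaffold also called tamalin, was higher by 0.31 (edgeR adjusted p 0.00531).

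Homer1, the scaffold with an activity-induced short form, did not pass the test in either material. In whole CA RNA it ranged from 136 to 267 CPM in cKO and 156 to 206 CPM in Control (log2 fold change 0.11, edgeR adjusted p 0.802), and in neuron RNA its log2 fold change was 0.14 (edgeR adjusted p 0.665). The whole CA lanes differed. Homer1 in libraries 1 to 3 was 227, 267 and 245 CPM in cKO, above 184, 195 and 206 CPM in Control. In libraries 4 to 6 it was 137, 158 and 136 CPM in cKO and 156, 161 and 175 CPM in Control. Among 18 genes of the Gi/o pathway, Kcnj9, a subunit of the inwardly rectifying potassium channels that Gi/o-coupled receptors open, was higher in whole CA cKO libraries. It averaged 114 CPM in cKO and 86.1 CPM in Control, a log2 fold change of 0.40 (edgeR adjusted p 0.000753). Of 16 presynaptic, trafficking and clearance partners, Pick1, which binds the tail of Grm7, was higher by 0.27 (edgeR adjusted p 0.0346). Elfn1, a postsynaptic adhesion protein that recruits Grm7 across the synapse, stood at 21.3, 23.5 and 22.4 CPM in neuron cKO libraries and 24.9 to 27.2 CPM in the 3 neuron Control libraries. Every cKO library lay below every Control library, but the log2 fold change of −0.21 did not pass the test (edgeR adjusted p 0.255), and in whole CA RNA it was 0.04 (edgeR adjusted p 0.92).

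The genes whose log2 levels followed each member most closely over the 12 whole CA libraries were picked from 13162 genes by Pearson r, as a description. Both genotypes and both lanes are mixed in these values, and r after removing the means of each genotype in each lane follows. For Grm2 they were Acap3 (0.95, then 0.94), Cacna1h (0.93, then 0.96) and C1ql2 (0.91, then 0.91), the last a dentate granule marker. For Grm3 they were Nusap1 (0.86, then 0.80), Pla2g7 (0.83, then 0.77) and Il6st (0.83, then 0.90). Grm4 was followed by Arhgap33 (0.97, then 0.98), Prkcsh (0.96, then 0.96) and Adam15 (0.96, then 0.95). Grm5 was followed by Mblac2 (0.98, then 0.97), Ppp3ca (0.98, then 0.95) and Rap1b (0.97, then 0.96). The closest to Grm7 were Dock9 (0.98, then 0.94), Prkca (0.95, then 0.86) and Rapgef2 (0.95, then 0.88), and to Grm8 Etv3 (0.86, then 0.72), Golt1b (0.84, then 0.70) and Qtrt2 (0.83, then 0.86). Among the members themselves, r was 0.76, then 0.53, for Grm5 and Grm7, 0.56, then 0.77, for Grm2 and Grm4, and −0.70, then −0.85, for Grm4 and Grm7.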

How the data were processed

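RNA files as deposited by the authors hold whole-number read counts per Ensembl gene, 1 file per library. The aligner, counter and strandedness are not given in the sources used here, and genes overlapping Grm5, Grm7 and Grm8 could share reads with them. Per the submitters' processing notes the builds were mm10 and GRCm38. The ChIP files are peak lists made by the authors with MACS 2.1.0.20140616 or 2.1.1.20160309 at a q-value cutoff of 0.1, per the file headers, from 24.4 to 41.6 M tags per library. Per the file headers they give each peak's length, fold enrichment and −log10 q, and only positions, lengths and, in an alternative, the −log10 q were used. Symbols matched 99.3% and 98.9% of the RNA identifiers.

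Each gene's counts went into the quasi-likelihood test of edgeR 4.0.16, with TMM factors and filterByExpr, each comparison in its own fit over all genes, two-sided, with Benjamini-Hochberg adjustment and calls under 0.05. DESeq2 1.42.0 was an alternative. A member's start was its outermost start in the RefSeq promoter table (GRCm38.p6) or, for Grm4 and Grm5, the end of the RefSeq gene span marked by H3K4me3. Genotypes were compared with limma 3.58.1 on log2(summed peak length + 100 bp), over all starts with a peak in at least 3 libraries. This ChIP analysis was added after seeing the data. Peak length does not measure the height of the signal. The programs were tested on simulated data. Members, gene lists and tests were chosen with earlier results of these data known. The rule for naming genes was the 6 members, every gene of the signalling lists called between genotypes (1 of them is not reported here), Homer1, Elfn1, Setd1b, and per member the 3 genes with the highest r among those with mean log2 CPM of at least 1 (prior count 2). Cell type marker lists were used for description. Alternatives were other scalings, filters, DESeq2, lane, replicate blocks, each library left out, and for peaks other windows, offset, a −log10 q of at least 5 and centring.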

Additional observations from a re-analysis of the deposited data

Results flagged for a closer look

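Of 48 groups of 4 or 6 libraries checked for a member's level or summed peak length, 9 held a library set apart from the others by a gap that is large for the group's range. Chance alone flags about 1 group in 20, or 2.4 of 48. In whole CA RNA, Control 1 had 16.1 CPM of Grm4, while the other Control libraries had 6.95 to 8.56 CPM. H3K4me1 held 4 of these groups: Grm5 in Control 4 (1663 bp, others 290 to 510 bp), Grm5 in cKO 3 (3262 bp, others 4352 to 4572 bp), Grm7 in Control 1 (7567 bp, others 674 to 1374 bp) and Grm3 in cKO 1 (3801 bp, others 2808 to 2974 bp). H3K27ac was long at Grm2 in cKO 2 (7956 bp, others 4714 to 5240 bp) and short at Grm5 in cKO 3 (2389 bp, others 3510 to 3630 bp). H3K9ac at Grm2 was short in Control 1 (4381 bp, others 5766 to 5863 bp), and H3K4me3 at Grm3 was long in Control 3 (3810 bp, others 3404 to 3460 bp). The causes were not tested.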

How the results depend on the processing

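Of 836 alternative values for single members, 781 kept their direction and their side of the threshold. Genes called in neuron RNA numbered 539, and 840 with DESeq2, 327 with the replicate block and 207 to 482 with 1 library left out. The member count of 1 there became 0 with the replicate block (Grm2, edgeR adjusted p 0.112) and 0 to 1 with 1 library left out. In whole CA RNA, 640 genes became 207 in libraries 1 to 3 and 224 in libraries 4 to 6, and the member count of 1 became 0 in each and 0 to 1 with 1 library left out. The interaction count of 28 became 69 without a filter, 75 with DESeq2 and 18 to 32 with 1 library left out (18 without neuron cKO 2 or neuron Control 1). The 5 members called for H3K4me3 became 3 with centring. For H3K4me1, 1294 starts became 257 at a −log10 q of at least 5, 832 within 1 kb and 615 with the replicate block, and the member count of 1 became 0 at a −log10 q of at least 5 (where Grm5 could not be tested), 0 within 5 kb and 1 to 2 with 1 library left out. For H3K27ac, 78 starts became 37 with an offset of 1000 bp, 0 with the replicate block and 14 to 87 with 1 library left out. For H3K9ac, 187 became 343, 0 and 22 to 221.

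Same-numbered libraries did not deviate together throughout (r −0.06 to 0.29 in neuron RNA, −0.06 to 0.20 in whole CA RNA), and not every library matched its own number best, so the numbers name libraries only. Grm8 H3K4me3 had a limma adjusted p of 0.0549 with the replicate block, which changed no other member's call beside Grm2.

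Directions turned for small differences. Grm5 in neuron RNA ranged from −0.174 to 0.0932 with 1 library left out (above 0 without cKO 3 or Control 2). In whole CA RNA, Grm4 was −0.0804 in libraries 1 to 3 and Grm8 was 0.0859 in libraries 4 to 6. In the interaction, Grm3 was 0.0462 and Grm8 0.0589 with whole CA libraries 1 to 3, and Grm3 ranged from −0.126 to 0.0798 with 1 library left out. Grm8 between cKO materials was 0.15 by library size, 0.0264 without a filter and −0.159 to 0.117 with 1 library left out. H3K4me3 at Grm4 was 0.061 with centring. H3K4me1 at Grm3 was −0.28 within 5 kb and −0.0075 to 0.139 with 1 library left out. At Grm4 it was −0.10 without cKO 1, −0.01 without Control 1 and −0.04 without Control 2, and at Grm7 −0.46 within 5 kb. H3K27ac at Grm2 was −0.19 within 5 kb and at Grm5 −0.192 to 0.45 with 1 library left out. H3K9ac at Grm4 was 0.25 within 1 kb, and at Grm5 −0.28 within 1 kb, −0.19 within 5 kb and −0.22 without Control 1. The causes were not tested. Calls lost or gained by single members also included Grm3 H3K4me3 within 1 kb (−0.23, limma adjusted p 0.0685) and Grm2 H3K4me1 within 1 kb (0.71, limma adjusted p 0.0046). Grm4, with 118 to 245 reads per whole CA library, and Grm8, with 127 to 202, had the fewest reads.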
